A study of Mus musculus with 7 samples.

Results

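The 9 genes described here, Neurog1, Neurog2, Eomes, Insm1, Btg2, Gadd45g, Sstr2, Rasgef1b and Mfap4, mark or drive the step from radial glia to intermediate progenitors in the developing cerebral cortex. They were taken as a list of names, and each was read from the probe set annotated with that symbol alone, so that 9 of the 19938 genes measured are covered. Every one of the 9 had exactly 1 such probe set. The study asked which transcripts differ after Trnp1, a nuclear protein of cortical progenitors, is knocked down. It holds 3 arrays of Trnp1 knockdown cells and 4 arrays of control cells, whose genotype is given as WT. In both groups the cortices of C57BL/6 mice were electroporated at embryonic day 13, and cells positive for GFP, the green reporter of transfection, were taken by FACS after 24 h (embryonic day 14). The labels do not give the sequence or promoter of the knockdown construct, what the control cells received or the number of animals in a sample. They state that sex was not determined, and they call the samples biological replicates. Where these are not separate animals, the p-values measure only the spread between samples.

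In the embryonic cortex, radial glia divide at the ventricle and either renew themselves or give rise to intermediate progenitors, which divide again away from the ventricle and produce neurons. The basic helix-loop-helix factors Neurog1 and Neurog2 start this program. They switch on Notch ligands, the T-box factor Eomes (also called Tbr2) and then the Neurod factors of newborn neurons. Insm1 and Btg2 belong to the same step, since Insm1 promotes the formation of basal progenitors and Btg2 (also called Tis21) is switched on in progenitors whose next division gives neurons.

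The signal of cortical progenitor genes was present in the sorted cells. All 16 radial glia genes examined, among them Pax6, Sox2, Fabp7 and Vim, lay above the median level of all genes, as did all 9 genes of interest, whose mean levels ran from 7.36 to 10.28 on the log2 scale against a median of 4.87. All 10 microglia genes lay above that median too, and only 1 of 15 proneural targets of newborn neurons lay below it. These levels alone therefore do not identify the sorted cells. Levels are log2 values after RMA, the robust multi-array average, in which 1 unit is a doubling of signal. Trnp1 itself averaged 4.73 ± 0.159 (SD, n = 3) in knockdown arrays and 5.13 ± 0.117 (SD, n = 4) in controls, and the groups did not overlap. Of all genes 3.07% were lower without overlap. The mean level of Trnp1 was 4.96, close to the median of 4.87. Its log2 difference, knockdown minus control, was -0.40 (SE 0.12), or 75.8% of the control signal, with an adjusted p of 0.825 by limma.

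None of the 9 genes passed the test. Limma, a linear model fitted to all genes at once with Benjamini-Hochberg adjustment at 0.05, called 0 of the 19938 genes (0%), and at an unadjusted p under 0.05 it gave 719 lower (3.61%) and 439 higher genes. Of the 9 genes, 2 had an unadjusted p under 0.05, both lower in knockdown cells, namely Rasgef1b and Sstr2. The proneural factors Neurog1 and Neurog2 and the defining intermediate progenitor factor Eomes differed by 0.13, 0.02 and -0.07, each with an interval that covers 0 and a wide spread within the knockdown group. Altogether 6 of the 9 were lower and 3 higher, with a median difference of -0.15. Genes of like level had a similar median: among the 3210 genes with a mean level between 7.36 and 10.28, 73.3% were lower and the median was -0.16, while the median over all genes was 0. Of these 3210 genes, 9.78% were lower with an unadjusted p under 0.05 by limma.

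**Figure D1:**
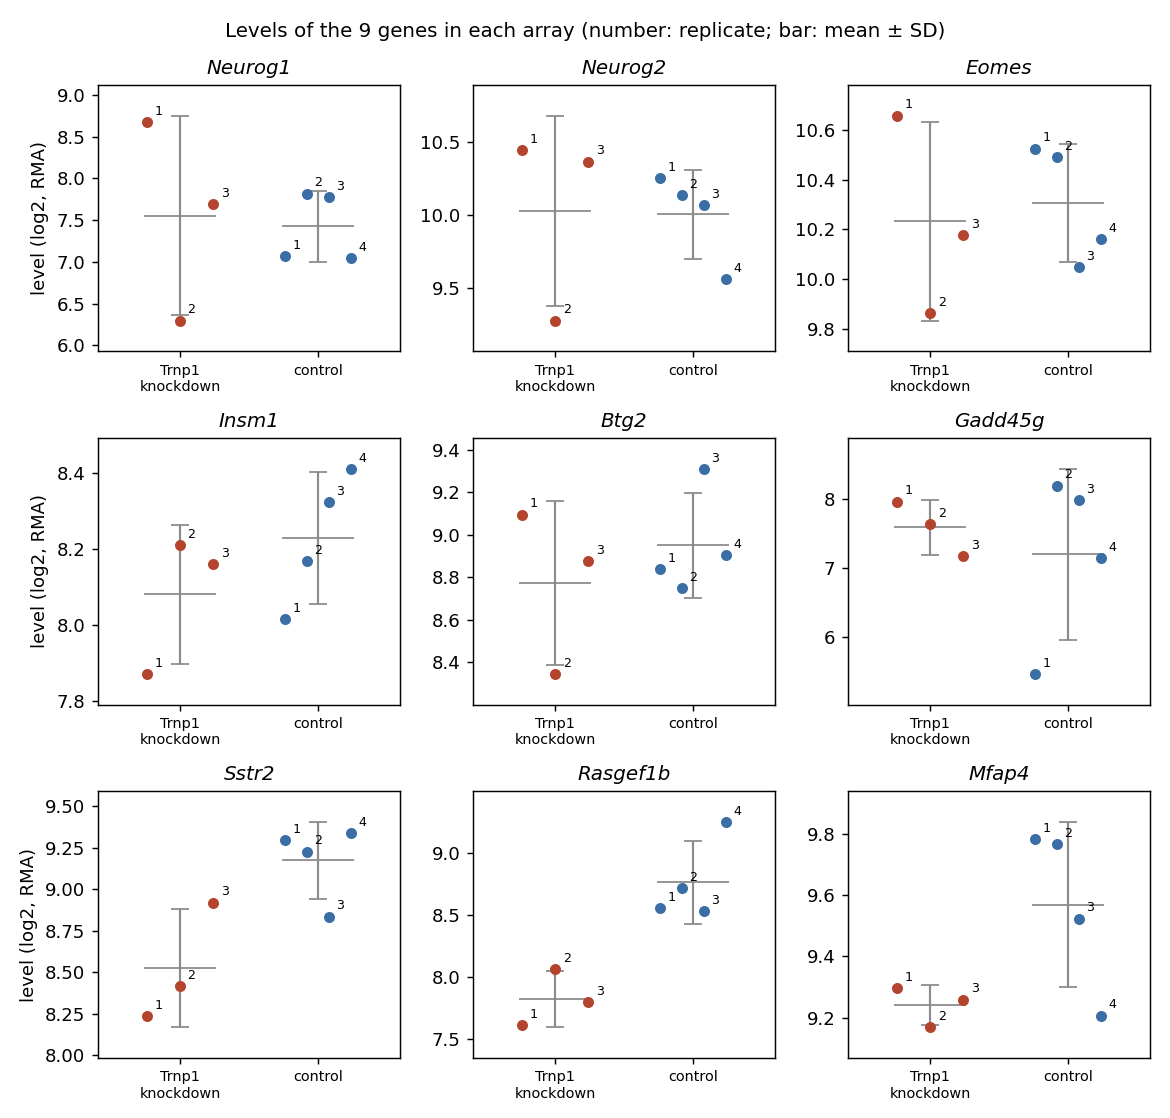
Level (log2, RMA) of each of the 9 genes in every array, with Trnp1 knockdown (red) left of control (blue), replicate numbers beside the points, and bars for mean ± SD (n = 3 and n = 4). Each panel has its own axis, which does not start at 0. Rasgef1b is the one panel in which the groups do not overlap, and knockdown replicate 2 is the lowest array for Neurog1, Neurog2, Eomes, Btg2 and Mfap4.

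Neurog2, the main proneural factor of the dorsal cortex, had levels of 10.44, 9.27 and 10.37 in knockdown replicates 1, 2 and 3, against 10.25, 10.14, 10.07 and 9.56 in control replicates 1 to 4. Knockdown replicates 1 and 3 lay above every control and replicate 2 below every control. The SD was 0.654 (n = 3) in knockdown cells and 0.306 (n = 4) in controls, and the difference was 0.02 (SE 0.31, 95% interval -0.71 to 0.76), with an adjusted p of 0.99 by limma. Neurog1, a close relative that is co-expressed with Neurog2 in early progenitors, showed the same order of knockdown arrays with a larger spread. Its levels were 8.67, 6.30 and 7.70 in knockdown cells, against 7.07, 7.82, 7.77 and 7.05 in controls. The difference was 0.13 (SE 0.53, 95% interval -1.10 to 1.36), which spans 46.5% to 257% of the control signal.

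Eomes, which defines intermediate progenitors, had levels of 10.66, 9.86 and 10.18 in knockdown cells, against 10.53, 10.49, 10.05 and 10.16 in controls. The knockdown group held both the highest and the lowest array of all 7. The difference was -0.07 (SE 0.22, 95% interval -0.58 to 0.43), and the interval spans 66.9% to 135% of the control signal. In bulk samples, fewer cells of a type and less RNA per cell cannot be told apart. The signs of the Neurog1, Neurog2 and Eomes differences each depended on single arrays: without knockdown replicate 1 they were -0.43, -0.18 and -0.29, and without knockdown replicate 2 they were 0.76, 0.40 and 0.11.

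Promoter windows of 250 bases before and 50 bases after the transcription start were found in RefSeq (build GRCm38.p6) for 7 of the 9 genes. Those of Neurog2 (chr3:127632886-127633185, plus strand) and Eomes (chr9:118477939-118478238, plus strand) are shown because the 2 genes had the same high and low knockdown arrays. They are written 5′ to 3′ with a TATA motif in capitals, and it begins 29 bases before the start in Neurog2 and 30 in Eomes. Neurog1 and Btg2 had the same high and low knockdown arrays too, and their windows hold no TATA motif.
Neurog2: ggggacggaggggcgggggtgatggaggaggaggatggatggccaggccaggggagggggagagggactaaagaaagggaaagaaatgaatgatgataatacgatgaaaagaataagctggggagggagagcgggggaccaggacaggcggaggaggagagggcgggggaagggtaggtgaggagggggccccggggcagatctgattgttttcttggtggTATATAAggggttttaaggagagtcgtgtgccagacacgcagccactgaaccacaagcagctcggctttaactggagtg
Eomes: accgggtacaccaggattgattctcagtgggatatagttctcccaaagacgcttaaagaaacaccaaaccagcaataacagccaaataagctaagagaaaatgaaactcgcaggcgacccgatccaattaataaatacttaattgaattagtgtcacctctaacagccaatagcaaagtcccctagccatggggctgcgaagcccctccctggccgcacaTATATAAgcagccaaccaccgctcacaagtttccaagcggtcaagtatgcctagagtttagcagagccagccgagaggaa
Of all 32851 windows, 15.1% hold TATATAA or TATAAA on either strand, and 3 of the 7 windows here do, the other being Gadd45g. The general E-box CANNTG, the letters that basic helix-loop-helix factors bind, is in 72.3% of windows and in 3 of the 7, namely Neurog1, Gadd45g and Rasgef1b. The E-box form CAGATG, a subset of CANNTG searched on both strands, is in 17.2% of windows and in 0 of the 7. These matches describe the letters of a short window only.

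Insm1, a zinc finger factor, varied least between arrays among the 4 transcription factors. Its levels were 7.87, 8.21 and 8.16 in knockdown cells, against 8.02, 8.17, 8.32 and 8.41 in controls. Knockdown replicate 1, the highest array for Neurog1, Neurog2 and Eomes, was the lowest for Insm1. The difference was -0.15 (SE 0.14, 95% interval -0.48 to 0.18), with an adjusted p of 0.866 by limma, and it was -0.045 without knockdown replicate 1, -0.22 without control replicate 1 and -0.017 after cyclic loess normalization.

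Btg2, an antiproliferative factor of the BTG and TOB family, had levels of 9.10, 8.35 and 8.88 in knockdown cells, against 8.84, 8.75, 9.31 and 8.90 in controls. As for the Neurog genes and Eomes, knockdown replicate 2 was the lowest array and replicate 1 the highest knockdown array. The difference of -0.18 (SE 0.21, 95% interval -0.68 to 0.32) was 0.034 without knockdown replicate 2. Gadd45g, a growth arrest and stress response gene, had levels of 7.96, 7.63 and 7.17 in knockdown cells, against 5.46, 8.20, 7.99 and 7.14 in controls. One control array, replicate 1, lay 1.74 log2 units below the control mean. With it the difference was 0.39 (SE 0.63, 95% interval -1.09 to 1.88), and without it -0.19. A list of 7 measured genes held other BTG, TOB and GADD45 genes and Gadd45gip1, which encodes a protein that binds GADD45 proteins and is no member of these families. None was called, 5 were lower and 2 higher, and the median was -0.21. The groups did not overlap for Tob1 (-0.46, SE 0.17, and -0.26 without knockdown replicate 3) and for Gadd45gip1 (-0.39, SE 0.17, and -0.25 without control replicate 3). Of all genes 3.07% were lower without overlap, and 6.7% in the level range of the 9 genes.

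Rasgef1b, an exchange factor that activates the Rap2 GTPases, was the lowest of the 9 relative to controls. Its levels were 7.61, 8.06 and 7.795 in knockdown cells, against 8.55, 8.71, 8.53 and 9.25 in controls. All 3 knockdown arrays lay below all 4 controls, as for 613 of all genes (3.07%) and for 6.7% of the genes in the members' level range. The means were 7.82 ± 0.228 (SD, n = 3) in knockdown cells and 8.76 ± 0.335 (SD, n = 4) in controls. The difference was -0.94 (SE 0.21, 95% interval -1.42 to -0.46), or 52.2% of the control signal (37.3% to 72.9%). Its unadjusted p of 0.00234 by limma had an adjusted value of 0.825, and an exact permutation test (two-sided, 35 ways to split the arrays) gave 0.0286, the smallest p possible here. The difference kept its sign with each array left out, from -1.1 without knockdown replicate 2 to -0.78 without control replicate 4.

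Sstr2, the receptor through which somatostatin inhibits adenylyl cyclase, was next. Its levels were 8.24, 8.42 and 8.92 in knockdown cells, against 9.30, 9.23, 8.84 and 9.34 in controls. Knockdown replicate 3 lay above control replicate 3, so the groups overlapped by that pair of arrays. The means were 8.52 ± 0.354 (SD, n = 3) in knockdown cells and 9.17 ± 0.230 (SD, n = 4) in controls. The difference was -0.65 (SE 0.20, 95% interval -1.12 to -0.18), or 63.7% of the control signal, with an adjusted p of 0.825 by limma and 0.0857 by the exact permutation test. With 1 array left out it ran from -0.85 without knockdown replicate 3 to -0.51 without knockdown replicate 1.

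Mfap4, a microfibril-associated glycoprotein of the extracellular matrix, had nearly equal levels of 9.30, 9.17 and 9.26 in knockdown cells, against 9.78, 9.77, 9.52 and 9.21 in controls. Control replicate 4 lay among the knockdown arrays and the other 3 controls above them. The difference was -0.33 (SE 0.16, 95% interval -0.70 to 0.05), with an adjusted p of 0.825 by limma, and it was -0.45 without control replicate 4 and -0.20 after cyclic loess normalization.

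The promoter windows of Sstr2 (chr11:113619077-113619376, plus strand) and Rasgef1b (chr5:99252878-99253177, minus strand) are shown because these were the 2 genes lowest relative to controls. They are written 5′ to 3′ on the strand of the gene. Capitals mark TGACGTCA, the cyclic AMP response element, in Sstr2 and an E-box in Rasgef1b.
Sstr2: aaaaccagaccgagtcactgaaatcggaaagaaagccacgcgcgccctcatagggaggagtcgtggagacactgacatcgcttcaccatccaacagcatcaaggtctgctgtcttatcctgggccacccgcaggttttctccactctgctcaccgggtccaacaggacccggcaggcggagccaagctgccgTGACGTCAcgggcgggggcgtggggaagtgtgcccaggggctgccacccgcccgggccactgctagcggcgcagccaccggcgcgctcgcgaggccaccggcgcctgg
Rasgef1b: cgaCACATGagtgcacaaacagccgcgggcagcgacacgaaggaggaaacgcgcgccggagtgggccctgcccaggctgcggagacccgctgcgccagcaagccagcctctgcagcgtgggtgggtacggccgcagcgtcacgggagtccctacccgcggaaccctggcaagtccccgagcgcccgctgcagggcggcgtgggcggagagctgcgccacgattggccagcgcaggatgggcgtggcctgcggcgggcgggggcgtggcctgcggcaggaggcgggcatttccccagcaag
The element TGACGTCA, which reads the same on both strands, begins 58 bases before the start of Sstr2. It is in 1.79% of all windows and in 2 of the 7 here, the other being Btg2, where it begins 166 bases before the start. The E-box of Rasgef1b begins 247 bases before the start. The 2 windows share none of the motifs searched.

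**Figure D2:**
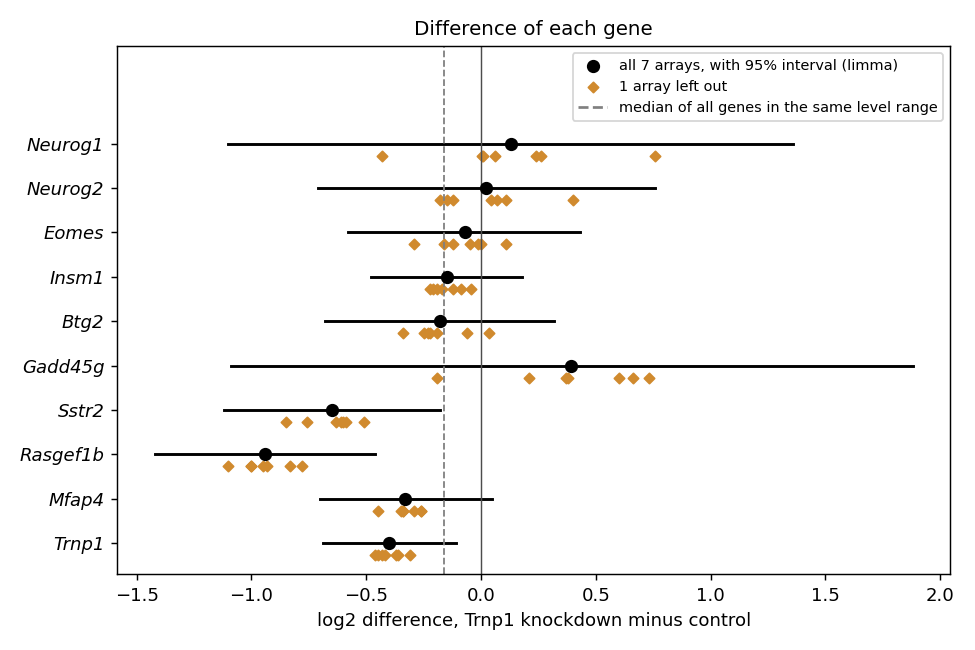
Log2 difference, Trnp1 knockdown minus control, for the 9 genes and Trnp1 (black points), with the 95% interval of limma (lines) and the values with 1 array left out (orange diamonds). The dashed line at -0.16 is the median of all genes in the same level range. The diamonds of Neurog1, Neurog2, Eomes, Btg2 and Gadd45g lie on both sides of 0, whereas those of Insm1, Sstr2, Rasgef1b, Mfap4 and Trnp1 lie below it.

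Whether Rasgef1b and Sstr2 differed by another amount than Eomes was tested by subtracting the log2 level of Eomes in the same array from every other gene and repeating the fit. Relative to Eomes, Rasgef1b stood at -3.05, -1.8 and -2.38 in knockdown cells, against -1.97, -1.78, -1.52 and -0.91 in controls, and the groups overlapped. The difference was -0.86 (SE 0.35, 95% interval -1.60 to -0.13). That of Sstr2 was -0.58 (SE 0.33, 95% interval -1.26 to 0.11). Both adjusted p-values were 1 by limma, and the fit called 0 of 19937 genes (0%), with 430 at an unadjusted p under 0.05. A difference from Eomes is therefore not shown for either gene, and neither is a like response. The other 6 genes had differences relative to Eomes between -0.25 (Mfap4) and 0.47 (Gadd45g), all with intervals that cover 0.

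The arrays differed in markers of other regions and cells, and some of the 9 genes differed along with them. In knockdown replicate 2, genes of ventral GABA neuron precursors were high: Dlx2 had levels of 5.61, 8.48 and 5.20 in knockdown replicates 1, 2 and 3, against 4.87 to 5.30 in controls. Dlx5 had 6.31, 8.73 and 5.40 in knockdown cells, against 4.60 to 4.76 in controls. The summed linear signal of the 11 measured genes of this list was 331, 1500 and 267 in knockdown cells, against 207 to 241 in controls, and 7 of the 11 had mean levels below the median of all genes. The list was not high in replicate 2 alone, since all 3 knockdown sums lay above all control sums. All 11 genes were higher in knockdown cells. For 4 of them all knockdown arrays lay above all controls, as for 517 of all 19938 genes. Knockdown replicate 2 was also the array with the lowest Neurog1, Neurog2, Eomes and Btg2. Without it, the differences were 0.76, 0.40, 0.11 and 0.034, and no adjusted p passed.

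Ttr, the transthyretin gene of the choroid plexus, had levels of 4.34, 11.98 and 4.20 in knockdown cells, against 4.05, 4.00, 9.86 and 12.55 in controls. The sum over the 9 measured choroid plexus and hem genes was 144, 4340 and 143 in knockdown cells, against 128, 136, 1038 and 6915 in controls. Ttr made up most of the sum in knockdown replicate 2 and control replicates 3 and 4, and 6 of the 9 lay below the median level of all genes. The arrays with the highest sums, knockdown replicate 2 and control replicate 4, were the lowest of their groups for Neurog1, Neurog2 and Mfap4. Control replicate 3, with its sum of 1038, stood at 0.35 for Neurog1, 0.06 for Neurog2 and -0.05 for Mfap4 relative to the control mean. With both left out, which leaves 2 knockdown and 3 control arrays, the differences were 0.63 for Neurog1, 0.25 for Neurog2, 0.063 for Eomes, -0.15 for Insm1 and 0.018 for Btg2. Those of Gadd45g, Sstr2, Rasgef1b and Mfap4 were 0.35, -0.54, -0.90 and -0.41.

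Endothelial genes were high in knockdown replicate 1, where their sum was 1443, and in control replicate 4, where it was 1029, against 592 and 308 in the other knockdown arrays and 160 to 219 in the other controls. The sum of the 10 microglia genes ran from 1765 to 4002 in knockdown cells, against 924 to 7467 in controls, highest in control replicate 4. Meningeal and mural genes summed to 248 to 638 in knockdown cells, against 217 to 423 in controls, and 10 of the 12 lay below the median level of all genes. Cajal-Retzius genes summed to 189, 217 and 377 in knockdown cells, against 192 to 218 in controls, and 5 of the 8 lay below the median level of all genes. Among them Reln had levels of 5.05, 5.02 and 7.68 in knockdown cells, against 4.72 to 5.16 in controls. The 7 measured erythroid genes summed to 4229 to 7533 in knockdown cells, against 2363 to 7623 in controls. For Rasgef1b the difference was at least as low as -0.78 without any single array. It was -0.90 without the knockdown and control arrays of highest choroid plexus sum. That fit kept knockdown replicate 1, with its endothelial sum of 1443, and so did not remove the differences in other cell markers. The part of all these cells in the values of the 9 genes, Rasgef1b included, was not tested.

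**Figure D3:**
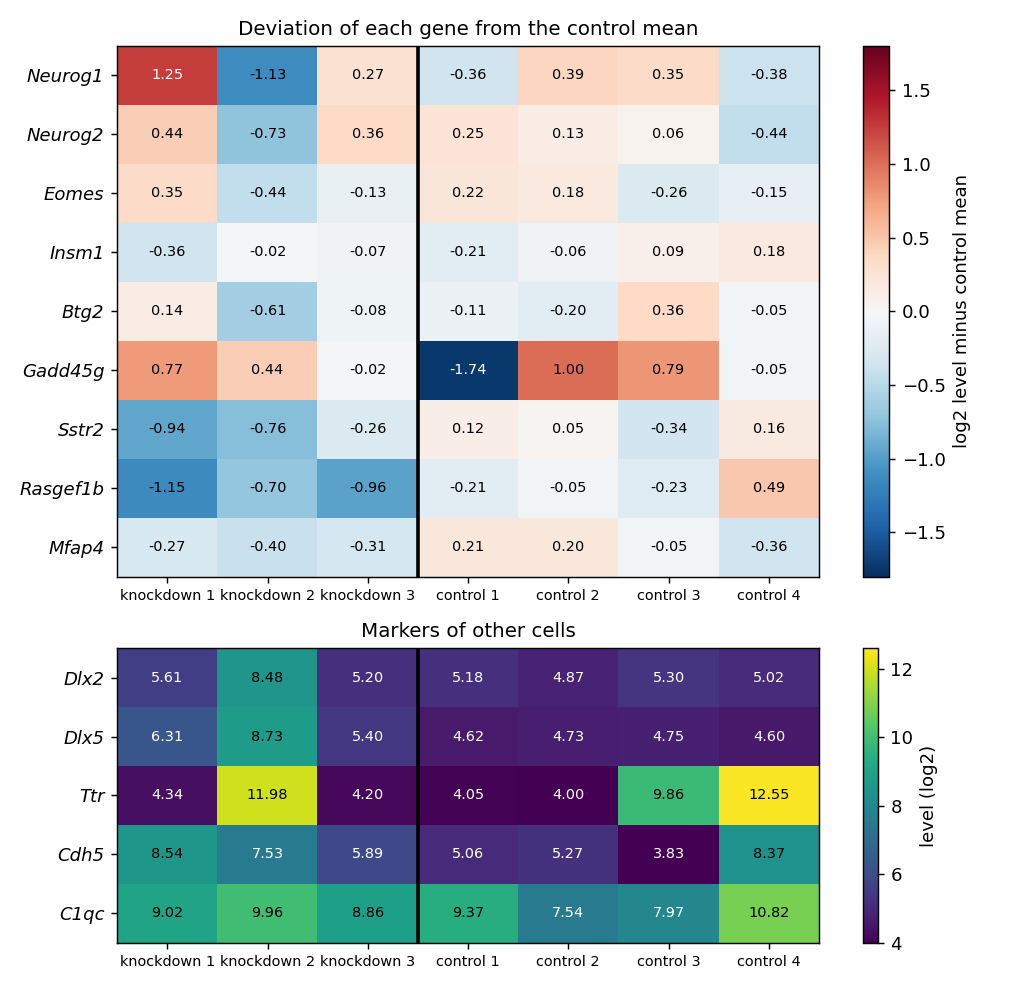
Upper panel: log2 level of each of the 9 genes in every array minus the mean of the 4 controls (blue, lower; red, higher). Lower panel: log2 levels of Dlx2 and Dlx5 (GABA neuron precursors), Ttr (choroid plexus), Cdh5 (endothelium) and C1qc (microglia). Knockdown arrays are left of the line. Knockdown replicate 2 has the lowest Neurog1 (-1.13), Neurog2 (-0.73) and Eomes (-0.44) and the highest Dlx2 and Dlx5, while Rasgef1b is below the control mean by 0.70 to 1.15 in all 3 knockdown arrays.

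Genes that act downstream of the Neurog factors were described next. Of 15 measured targets of proneural factors in newborn cortical neurons, 14 were lower in knockdown cells and 1 higher, 7 had an unadjusted p under 0.05, all lower, and 7 had groups that do not overlap. Over all genes 50.2% were lower, 3.61% lower with such a p and 3.07% lower without overlap, and in the level range of the 9 genes these shares were 73.3%, 9.78% and 6.7%. The counts of the lists that follow stand beside the same shares. The list's median difference was -0.51, and 0 of its members passed over all genes. Their summed signal was 5444, 5333 and 5630 in knockdown cells, against 8652, 7458, 8631 and 7683 in controls. All 3 knockdown sums lay below all control sums. Several of these genes were known to be low from earlier results of these data, so their count is a description.

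Neurod1, the bHLH factor that follows Neurog2 and Eomes in the cascade, had levels of 7.65, 7.45 and 6.98 in knockdown cells, against 8.74, 8.86, 8.75 and 8.87 in controls. Relative to Eomes its difference was -1.37 (SE 0.31, 95% interval -2.02 to -0.72, adjusted p 0.743 by limma). Rnd2, a small GTPase that Neurog2 induces in migrating neurons, had 6.77, 7.65 and 6.73 in knockdown cells, against 7.91, 8.29, 8.77 and 8.20 in controls, and its difference relative to Eomes was -1.17 (SE 0.39, adjusted p 1 by limma). Neurod6, a bHLH factor of cortical projection neurons, differed by -0.71 (SE 0.13). The Notch ligands among the targets stood at -0.03 (SE 0.33) for Dll1 and -0.28 (SE 0.19) for Dll3, both named after their values were seen.

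The list of other intermediate progenitor genes included factors of the same step. Of 14, 12 were lower and 2 higher, with a median of -0.27, and 2 had groups that do not overlap. These were Nhlh1, a bHLH factor of young neurons (8.91, 8.81 and 8.37 in knockdown cells, against 9.54, 9.53, 9.70 and 9.17 in controls), and the enkephalin gene Penk, at -0.67 (SE 0.18), whose level was below the median of all genes. Chd7, a chromatin remodeller, stood at 0.61 (SE 0.23), and at 0.33 with the mean over its probe sets. No gene of this list passed over all genes.

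Partners and opponents of the proneural factors were next examined. Of 12 bHLH partners and inhibitors, 10 were lower and 2 higher, with a median of -0.24. The E protein Tcf12, a dimer partner of the Neurog factors, differed by -0.39 (SE 0.17) with groups that do not overlap. Id2, which sequesters E proteins, differed by -0.53 (SE 0.24) and the Notch effector Hes1, a repressor of proneural genes, by -0.45 (SE 0.23). Without knockdown replicate 3 the differences of Tcf12, Id2 and Hes1 were -0.21, -0.30 and -0.20. In addition, Id2 was at -0.81 without knockdown replicate 2 and Hes1 at -0.68 without knockdown replicate 1. In the Notch pathway 11 of 20 genes were lower and 9 higher, with a median of -0.01. The ligands Jag1 and Jag2 were at 0.67 (SE 0.20) and 0.42 (SE 0.16), and Mfng, which modifies Notch and its ligands, at -0.46 (SE 0.18) with groups that do not overlap. A list of 12 genes held zinc finger factors of neuronal differentiation, as Insm1 is, with the corepressors Rcor1 and Rcor2 and the demethylase Kdm1a, and 6 of them were lower and 6 higher. Scrt2, a zinc finger factor, was at -0.67 (SE 0.22) and Snai2, another that was dim on these arrays, at 0.33 (SE 0.12). Rcor2 was at -0.35 (SE 0.14), and at -0.22 after cyclic loess normalization. None of these genes passed over all genes.

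The families of Sstr2, Rasgef1b and Mfap4 were counted in the same way. Of 6 somatostatin ligands and other receptors 2 were lower and 4 higher, with a median of 0.09. Sst itself had levels of 4.91, 4.63 and 6.97 in knockdown cells, against 4.39 to 5.02 in controls, so knockdown replicate 3 stood apart, and the difference of 0.74 was 0.0065 without it. Of the 5 genes of the RASGEF1 family and the Rap2 GTPases 2 were lower and 3 higher, between -0.25 and 0.20, and of 9 microfibril and elastic fibre genes 4 were lower and 5 higher, between -0.36 and 0.21. Below the median level of all genes lay 3 of the 6 somatostatin genes. The same held for 2 of the 5 RASGEF1 and Rap2 genes and 5 of the 9 fibre genes. Of all genes with a mean level of 4 to 6, 43.0% were lower, and 40.2% at a level up to 4. In the level range of the 9 genes of interest 73.3% were lower. Among 16 radial glia genes 10 were lower and 6 higher, with a median of -0.06. Of these 16, 3 had an unadjusted p under 0.05 by limma, all lower. The groups did not overlap for Emx1 (-0.36, SE 0.12) and Prom1 (-0.47, SE 0.17), both lower. In these 4 lists, 0 genes passed over all genes.

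**Figure D4:**
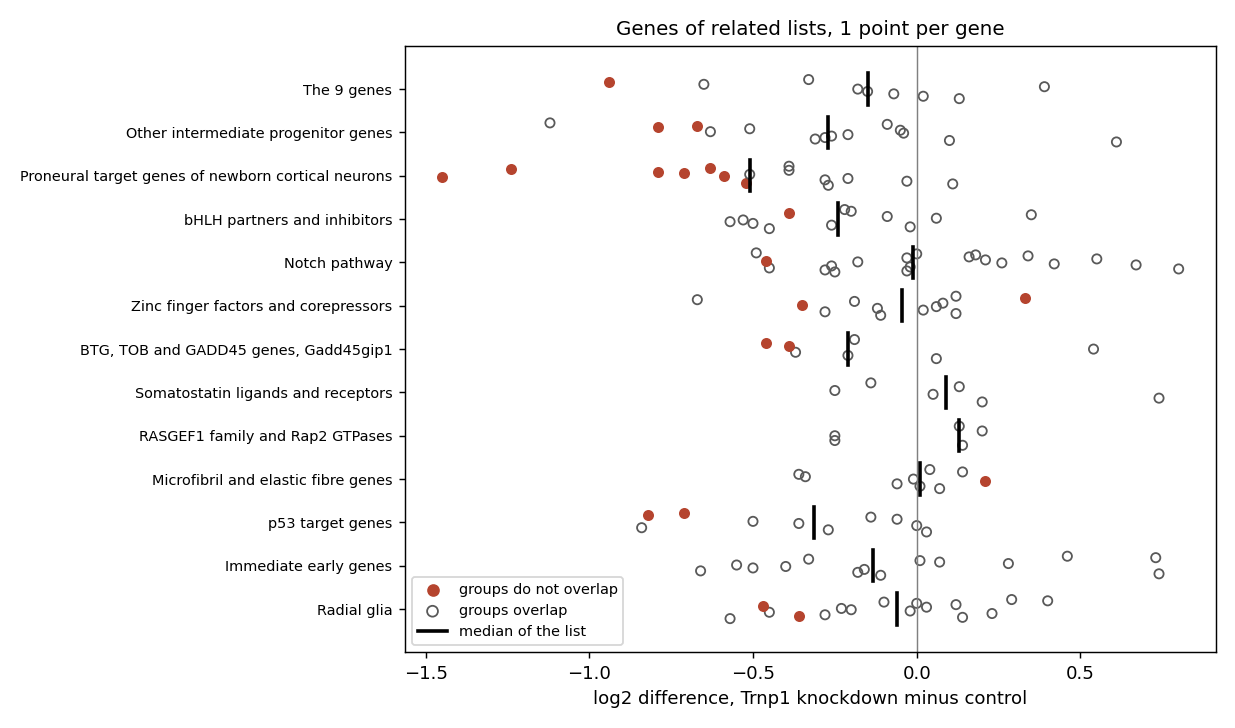
Log2 difference, Trnp1 knockdown minus control, of each gene (1 point per gene) for the 9 genes and for 12 related lists, which share some genes. Filled points have groups that do not overlap and black bars are list medians. The targets of proneural factors have the lowest median (-0.51) and 7 filled points, all lower, and the 9 genes have a median of -0.15 and 1 filled point. Of all genes 3.07% were lower without overlap, and 6.7% in the level range of the 9 genes. The lists were written with earlier results of these data known, so the place of the targets among them is a description.

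The genes whose levels followed each of the 9 most closely over the 7 arrays were taken by Pearson's r among 9606 genes at or above the median level. Such values are a description, since the 7 points share the 2 groups and the makeup of each array, and the genes were picked as the highest of many. Neurog1 was followed most closely by Men1 and Bmyc (r of 0.969 and 0.966), Neurog2 by Krt80 and the mitochondrial gene COX2 (0.959 and 0.957), and Eomes by Gpank1 and Cdk6 (0.982 and 0.947). Insm1 was followed by Mrpl10 and Fibp (0.995 and 0.993), Btg2 by Col27a1 and Nprl3 (0.974 and 0.963), and Gadd45g by Tcf7l1 and AI506816 (0.979 and 0.967), the last pair sharing the low value of control replicate 1. For the remaining genes these were Kdm4a and Mgat4b with Sstr2 (0.982 and 0.963), Gdap2 and Fbxl12 with Rasgef1b (0.988 and 0.987), and St3gal3 and the radial glia gene Prom1 with Mfap4 (0.971 and 0.960). None of the 9 genes was among the closest of another.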

How the data were processed

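Total RNA of sorted cells, labelled after whole-transcriptome amplification per the labels' protocols, was hybridised to 1 array per sample. The deposited values are log2, and the submitters' processing notes name RMA and Affymetrix Expression Console 1.2. RMA in general subtracts background, sets quantiles equal and shrinks the differences of dim probe sets. A genome build for the array was not given in the sources used here. Precision is limited by having 7 arrays.

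Of 35556 probe sets, 21789 had 1 gene symbol, 1621 several and 12146 none. Symbols were updated through Entrez identifiers (21698 matched), and each gene took its probe set with the highest mean, giving 19938 genes. The 2 groups were compared in R 4.3.3 with limma 3.58.1 (lmFit, eBayes, 5 residual and 2.36 prior degrees of freedom, two-sided, Benjamini-Hochberg over all genes, threshold 0.05), without covariates. Tested on simulated data (5 sets of 19938 genes), the knockdown comparison recovered 52.4% of changes of 1 log2 unit and 87% of changes of 2 log2 units, at a mean of 8.8 false calls. Each set had 200 changed genes and noise drawn independently for each gene and array. The real arrays need not meet these settings, so the shares are a check of the code. In the real data Neurod1, at -1.45, had an adjusted p of 0.736 by limma.

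The members and the 19 gene lists were chosen with earlier results of these data known. Named from each pathway list and radial glia were genes among the 3 with the smallest p and the 2 brightest, from each other cell type list among the 2 brightest, and for each member the 2 genes of highest correlation (clone names and small RNAs passed over). Alternatives changed the variance model, array weights, scaling, dim-gene filter, probe set rule, replicate block, threshold and single arrays. The labels do not say that replicate numbers link samples of the 2 groups. Promoters came from RefSeq, build GRCm38.p6.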

Additional observations from a re-analysis of the deposited data

How the results depend on the processing

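With 7 arrays a difference the size of that of Eomes is within the spread, and no gene passed over all genes, nor any of the 9 genes, under any alternative of the comparison of knockdown with control, including an adjusted p under 0.1. Insm1, Sstr2, Rasgef1b and Mfap4 were lower under every alternative. Setting the array medians equal moved the median of all genes by -0.11, so differences under that setting are read against it.

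With 1 array left out, Neurog1 lay between -0.43 (knockdown replicate 1 out) and 0.76 (knockdown replicate 2 out), and Neurog2 between -0.18 and 0.4 with the same arrays out, being also -0.12 when control replicate 4 and -0.15 when knockdown replicate 3 was out. Eomes lay between -0.29 (knockdown replicate 1 out) and 0.11 (knockdown replicate 2 out), Btg2 between -0.34 and 0.034 with those arrays out, Gadd45g between -0.19 (control replicate 1 out) and 0.73 (control replicate 2 out), and Rasgef1c between -0.013 (knockdown replicate 3 out) and 0.22 (knockdown replicate 2 out). Neurog2 was -9.3e-05 with array weights and -0.082 with array medians set equal, and Eomes was 0.054 after cyclic loess. With knockdown replicate 2 and control replicate 4 both left out, a setting chosen after the marker levels were seen, Eomes was 0.063 and Btg2 0.018.

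The count of the 9 genes with groups that do not overlap was 3 with array medians set equal (Mfap4, Rasgef1b and Sstr2, all lower, beside 9.94% of all genes), 3 with the 2 arrays left out (Neurog2 higher, Mfap4 and Rasgef1b lower, beside 28.8% of all genes in either direction) and 1 to 2 with 1 array left out (beside 8.35% to 20.8%). Without control replicate 3 the count was 2 of 9, beside 8.35% of all genes in either direction. Such small counts were not tested against the shares and are not read as particular to the 9 genes.

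Relative to Eomes, 2 of the 9 genes passed with array weights, Rasgef1b (-0.84) and Neurog2 (0.53), but there 4589 genes passed and the estimate of the weights did not converge (0.157 to 39.6). Of all genes, 16 passed relative to Eomes with an intensity trend, 3 with a robust prior, 26 after a further quantile and 18 after a cyclic loess normalization, 164 with the 2 arrays left out and 0 to 126 with 1 array left out (126 without control replicate 4, 53 without knockdown replicate 3, 10 or fewer otherwise), none of them among the 9 genes. The cause was not tested. With 1 array left out, the values relative to Eomes ran from -0.14 to 0.65 for Neurog1, from -0.099 to 0.29 for Neurog2 (also -0.0017), from -0.33 to 0.24 for Insm1 (also 0.042 and 0.034), from -0.23 to 0.10 for Btg2 and from -0.19 to 0.82 for Gadd45g. With array weights Insm1 was 0.093 and Btg2 0.13.

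The replicate number as a block, which gives control replicate 4 a block of its own and so equals leaving it out in the differences, gave 0 calls among all genes and among the 9 genes, with Neurog2 at -0.12, and relative to Eomes 144 calls, 0 of them among the 9, with Neurog2 at -0.0017 and Insm1 at 0.034. Same-numbered arrays correlated by 0.0278, -0.0507 and 0.0716 in their deviations from the group means. Arrays of unlike number correlated by -0.196 to 0.1403. So few pairs cannot show whether the numbers link samples of the 2 groups.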

Other observations

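Genes that respond to p53, which also induces Btg2, were lower in 9 of 10 measured cases, with a median difference of -0.31 and groups that do not overlap in 2. Of all genes with a mean level of 6 to 8, 62.0% were lower and 4.98% lower without overlap, and at a mean level of 8 to 10 these shares were 76.0% and 6.91%. Zmat3 had levels of 6.29, 6.17 and 6.01 in knockdown cells, against 7.11, 7.13, 6.71 and 6.49 in controls, a difference of -0.71 (SE 0.18). Trp53inp1 differed by -0.82 (SE 0.22), with levels of 8.10, 8.21 and 7.36 in knockdown cells and 8.79, 8.80, 8.45 and 8.81 in controls. Neither passed over all genes (adjusted p of 0.825 by limma), and 3 of the 10 lay below the median level of all genes.

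Immediate early genes, the class of rapid stimulus response genes to which Btg2 also belongs, numbered 14, of which 8 were lower and 6 higher, with a median of -0.13. Their summed signal ran from 2400 to 6171 in knockdown cells, against 3260 to 6521 in controls, and was high in knockdown replicate 2 and control replicate 4. Egr1 had levels of 9.08, 10.14 and 8.40 in knockdown cells, against 9.72, 9.04, 10.36 and 10.37 in controls, and its difference of -0.66 was -0.26 with knockdown replicate 3 left out and -1.1 with replicate 2 of that group left out. Btg2 did not follow this order, being lowest in knockdown replicate 2. None of the 14 passed over all genes.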
